A study of Mus musculus with 4 samples.

Results

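The genes described here are those of voltage-gated calcium channels in mouse interneurons and the cells sorted with them: 8 pore genes (Cacna1a, Cacna1b, Cacna1c, Cacna1d, Cacna1e, Cacna1g, Cacna1h and Cacna1i) and 2 genes of the auxiliary α2δ subunit (Cacna2d1 and Cacna2d2). They were chosen by symbol, 10 of the 26079 genes with a UMI in the cells kept, and each symbol was found once. Voltage-gated calcium channels open when a neuron depolarizes, and the calcium that enters triggers transmitter release, shapes firing and signals to the nucleus. The pore subunit sets the type of current, and the α2δ subunits, which sit mostly outside the cell, raise the number of channels at the membrane and at release sites. In interneurons, P/Q-type and N-type channels serve GABA release, L-type and R-type channels act mostly on the soma and dendrites, and T-type channels open at low voltage and favor burst firing.

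The study asked how loss of the NMDA receptor changes interneurons that arise in the medial ganglionic eminence (MGE). Cells were sorted for TdTomato from acute slices of frontal cortex (nCX) and hippocampus (HPC) of juvenile mice on postnatal days 18 to 20 and profiled by 3′ single-cell RNA sequencing. WT animals carry Nkx2.1-Cre and the Ai14 reporter with Grin1 wt/wt; NULL animals carry the same driver and reporter with Grin1 fl/fl, so that Grin1, the obligatory NMDA receptor subunit, is lost in the lineage. There are 3 WT libraries and 2 NULL libraries of each region, from pooled animals of both sexes and of the same litters, so that 10 libraries are compared. Nkx2.1-Cre acts in MGE progenitors and not in one mature cell type, so that Grin1 is lost early in the lineage, and the sort also holds oligodendrocytes, their precursors (OPC), glutamatergic neurons and other cells. Replicate 1 of each group was made with the older 10x chemistry (v2) and replicates 2 and 3 with the newer one (v3); the NULL groups have no replicate 3.

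Depth differs between the libraries. A UMI is a molecular tag that counts 1 captured transcript, and the WT cortex libraries hold 9306756, 14212183 and 28057207 UMIs for replicates 1, 2 and 3. The WT hippocampus libraries hold 10555408, 8782181 and 20639002. NULL cortex has 1488601 and 25688337 UMIs, and NULL hippocampus 3856745 and 47338167. NULL cortex replicate 1 is thus the smallest library, with 181 barcodes, and WT hippocampus replicate 2 has the lowest median per cell, 1479 UMIs against 2903 to 9508 in the other libraries. Pairs of libraries share between 0 and 12 cell barcodes.

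Cells were grouped into classes by marker genes: SST (somatostatin cells, with Th cells counted among them), PVALB (parvalbumin cells), NGFC (neurogliaform cells), OPC and oligodendrocytes. The calcium channel genes and the related genes given at the end had no part in the clustering. UMIs were summed over the cells of a class in each library, and levels are in CPM, the share of a gene in the UMIs of that sum on a scale where all genes add up to 1000 times 1000, given with the standard deviation (SD) over libraries. The WT libraries hold 296 to 1665 SST cells, 51 to 624 PVALB cells, 49 to 518 NGFC cells, 64 to 967 OPC and 303 to 2011 oligodendrocytes. In the NULL libraries the range is 106 to 857 SST cells, 31 to 264 PVALB cells and 4 to 675 NGFC cells, and a sum of under 10 cells was not used. Counts at transcript ends are not scaled by length, so that levels are compared between cells for 1 gene and never between genes. A gene is called when edgeR's test over all genes gives an adjusted p under 0.01 and the change is at least 0.144 on the log2 scale, the size of the study's own threshold. SE is the standard error of the log2 change that edgeR's test statistic implies.

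The 10 genes lie on 10 chromosomes (GRCm38, gene models of GENCODE vM21). Cacna1a is ENSMUSG00000034656.12, chromosome 8, 84388440 to 84640246; Cacna1b is ENSMUSG00000004113.14, chromosome 2, 24603887 to 24763152. Cacna1c is ENSMUSG00000051331.10, chromosome 6, 118587240 to 119196418; Cacna1d is ENSMUSG00000015968.12, chromosome 14, 30039939 to 30491455. For Cacna1e the model is ENSMUSG00000004110.10, chromosome 1, 154390731 to 154884501. The T-type genes are Cacna1g (ENSMUSG00000020866.13, chromosome 11, 94408391 to 94474198), Cacna1h (ENSMUSG00000024112.12, chromosome 17, 25374285 to 25433783) and Cacna1i (ENSMUSG00000022416.11, chromosome 15, 80287238 to 80398279). The α2δ genes are Cacna2d1 (ENSMUSG00000040118.11, chromosome 5, 15934691 to 16374511) and Cacna2d2 (ENSMUSG00000010066.11, chromosome 9, 107399612 to 107529343). On the same strand, Cacna1c overlaps the gene model Gm18981, Cacna1d overlaps Gm18072 and Cacna2d1 overlaps Gm43490, so that some UMIs of these places cannot be told apart between the 2 models. Protein-coding genes of the other strand that overlap a member are Dcp1b (Cacna1c), Chdh and Dcp1a (Cacna1d) and Tpsg1 (Cacna1h).

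In the WT libraries neurogliaform cells differ from the other 2 interneuron classes most in the α2δ genes, which were not called between PVALB and SST cells. Neurogliaform cells hold Cacna2d1 at 466 ± 142 CPM (mean ± SD of 6 libraries), 183-fold over SST cells and 92.3-fold over PVALB cells, and hold 10.2- and 11.6-fold less Cacna2d2 than these. Among the pore genes, Cacna1e is low in PVALB cells, Cacna1i is low in neurogliaform cells, and Cacna1c and Cacna1g are highest in SST cells. Cacna1a was not called between any 2 of the 3 classes. Each library gives all 3 classes, and the test compares the classes within libraries.

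Of the 10 genes, 9 passed the filter on low counts in these comparisons, all but Cacna1h. Between PVALB and SST cells 5 were called, 1 higher in PVALB and 4 lower, where 23.0% of all 10203 genes tested were called. Between NGFC and SST cells 5 were called, 1 higher and 4 lower (24.6% of all genes), and between NGFC and PVALB cells 5, 3 higher and 2 lower (24.4%). The median log2 change of the 9 was -0.01, -0.08 and -0.07 in these comparisons, against 0.00, 0.01 and 0.01 for all genes tested. DESeq2 called 5 in each comparison. Without WT cortex replicate 2 the PVALB and SST comparison called 2, and without WT cortex replicate 1, 2 or 3 the NGFC and SST comparison called 3. The share of all genes called without these libraries is not given.

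**Figure D1:**
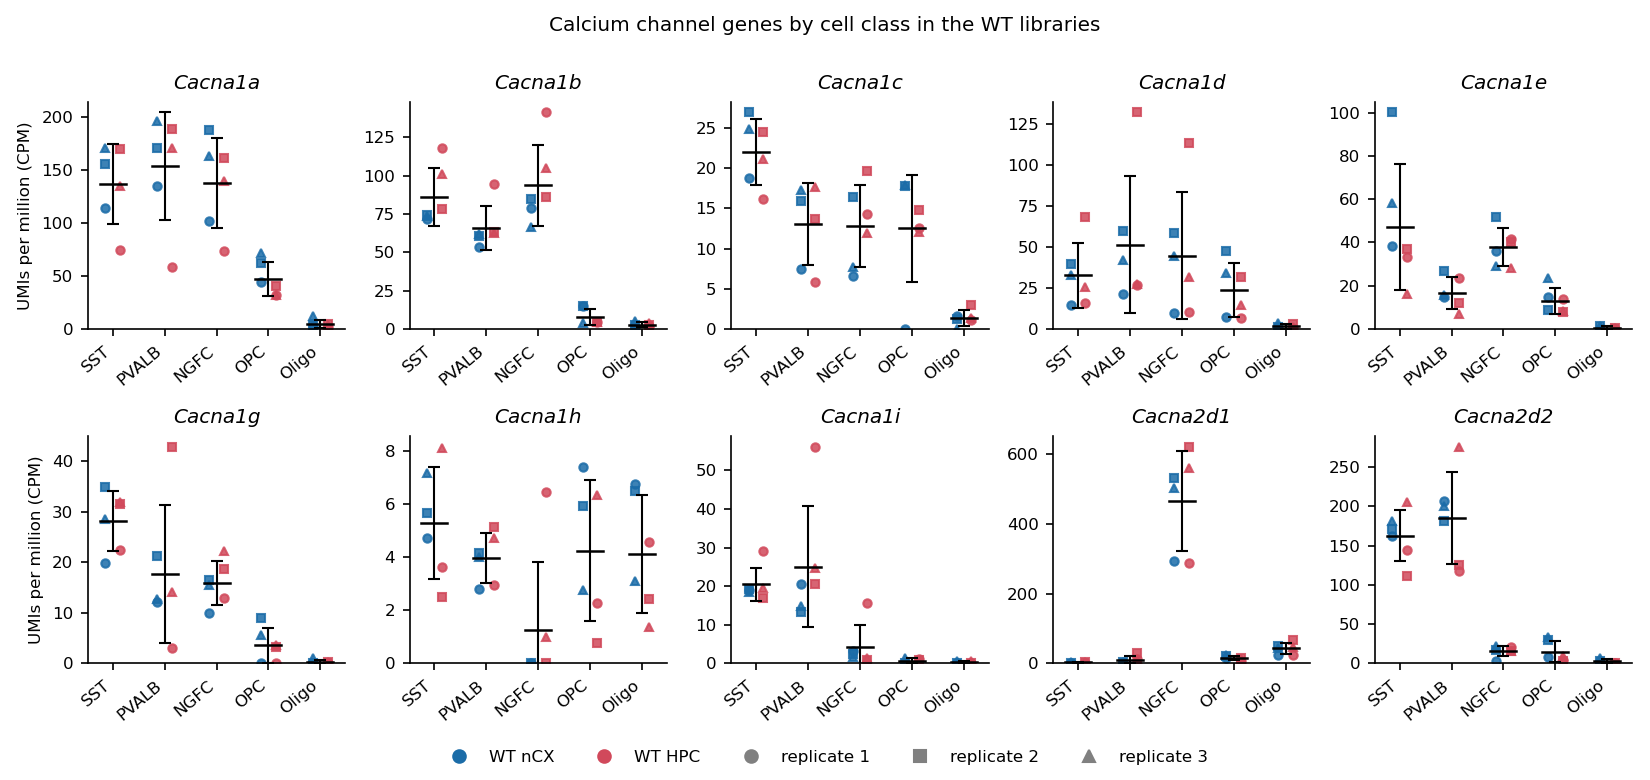
Level of each calcium channel gene (vertical axis, CPM, each panel on its own scale) in 5 cell classes (horizontal axis) of the 6 WT libraries; a point is a library (color: region, shape: replicate), a bar the mean and a whisker 1 SD. Cacna2d1 lies between 286 and 622 in NGFC and at or under 65.6 in the other 4 classes drawn.

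Cacna1a encodes the pore of P/Q-type channels, which trigger fast transmitter release. In order of the mean it stood at 154 ± 51.0 CPM in PVALB, 138 ± 42.8 in NGFC and 137 ± 37.4 in SST cells, and the 3 classes overlap over most of their range. The lowest, median and highest of 6 libraries were 59.0, 171 and 197 in PVALB cells and 75.0, 146 and 171 in SST cells. WT hippocampus replicate 1 is the lowest library in each of the 3 classes. PVALB exceeded SST cells in 5 of 6 libraries, and the difference was not called (log2 0.17, SE 0.0769, adjusted p = 0.0853).

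Cacna1b, the pore of N-type channels, which serve release in other terminals, was lower in PVALB cells than in both other classes. Its lowest, median and highest library in NGFC were 66.2, 85.5 and 141 CPM (mean 93.8 ± 26.5). SST cells had 71.5, 76.5 and 118 (86.2 ± 18.8), and PVALB cells 53.3, 62.4 and 94.5 (66.1 ± 14.4). The ranges overlap, but within a library PVALB cells were below SST cells in 6 of 6 libraries, and WT hippocampus replicate 1 is the highest library in all 3 classes. PVALB cells were lower than SST cells by 1.28-fold (log2 -0.35, SE 0.0857, adjusted p = 0.00188). NGFC exceeded PVALB cells by 1.41-fold (log2 0.49, SE 0.102, adjusted p = 3.51e-04), in 6 of 6 libraries. NGFC and SST, neighbors in the order of means, were not told apart (adjusted p = 0.242). The call against SST cells was lost without WT cortex replicate 2 (log2 -0.36, adjusted p = 0.0102) and without WT hippocampus replicate 3 (-0.31, adjusted p = 0.0118).

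The L-type pores Cacna1c and Cacna1d, which couple activity to gene expression and carry long-lasting current, went in opposite directions between PVALB and SST cells. Cacna1c had a lowest, median and highest library of 16.2, 22.8 and 26.9 CPM in SST cells (mean 22.1 ± 4.12). PVALB cells had 5.90, 14.8 and 17.7 (13.0 ± 5.11), and NGFC 6.57, 13.1 and 19.7 (12.8 ± 5.08). Only the top of the PVALB and NGFC ranges reaches the bottom of the SST range. In 6 of 6 libraries SST cells were the higher, by 1.59-fold over PVALB (PVALB minus SST log2 -0.67, SE 0.161, adjusted p = 0.00173) and by 1.66-fold over NGFC (NGFC minus SST log2 -0.73, SE 0.196, adjusted p = 0.00413). PVALB and NGFC cells were not told apart (adjusted p = 0.877). The adjusted p passed 0.01 without WT cortex replicate 1 or 2 against PVALB cells (0.0111 and 0.0219). Against NGFC it did so without WT cortex replicate 1, 2 or 3 or WT hippocampus replicate 3 (0.0117, 0.0156, 0.0268 and 0.0339).

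Cacna1d was higher in PVALB cells, with a lowest, median and highest library of 21.5, 34.6 and 132 CPM (mean 51.6 ± 41.9). NGFC had 9.85, 38.2 and 113 (44.8 ± 38.7), and SST cells 14.8, 29.3 and 68.5 (32.9 ± 19.9). The spread between libraries is wide and shared by the classes: WT hippocampus replicate 2, the library of lowest depth per cell, is the highest in all 3, and the part of depth in this was not tested. Within libraries PVALB exceeded SST cells in 6 of 6, by 1.43-fold (log2 0.52, SE 0.119, adjusted p = 0.00114). NGFC exceeded SST cells in 4 of 6 libraries and was not called (log2 0.42, SE 0.136, adjusted p = 0.0182), and NGFC and PVALB were not told apart (adjusted p = 0.868). The call was lost without WT cortex replicate 2 (adjusted p = 0.0152) and without WT hippocampus replicate 2 (0.0150).

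Cacna1e, the pore of R-type channels, was the pore gene with the largest difference between PVALB and SST cells. Its lowest, median and highest library were 16.2, 37.7 and 100.1 CPM in SST cells (mean 47.2 ± 29.2). NGFC had 28.1, 38.2 and 51.8 (37.9 ± 8.77), and PVALB cells 7.09, 15.4 and 26.9 (16.7 ± 7.36). No NGFC library falls within the range of the PVALB libraries, while the SST libraries spread widely and 1 of them, WT hippocampus replicate 3, lies within the PVALB range. PVALB cells were lower than SST cells by 3.10-fold (log2 -1.63, SE 0.205, adjusted p = 7.44e-06), in 6 of 6 libraries. NGFC exceeded PVALB cells by 2.93-fold (log2 1.55, SE 0.263, adjusted p = 1.71e-04), also in 6 of 6. SST and NGFC, neighbors in the order, were not told apart (adjusted p = 0.798).

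T-type channels, encoded by Cacna1g, Cacna1h and Cacna1i, open near the resting potential. Cacna1g had a lowest, median and highest library of 19.9, 30.05 and 34.9 CPM in SST cells (mean 28.2 ± 5.88). PVALB cells had 2.95, 13.4 and 42.9 (17.7 ± 13.7), and NGFC 9.85, 15.9 and 22.3 (15.96 ± 4.36). In 5 of 6 libraries PVALB cells were below SST cells; in WT hippocampus replicate 2 they were above. SST cells exceeded PVALB cells by 1.75-fold (PVALB minus SST log2 -0.81, SE 0.171, adjusted p = 5.46e-04), and NGFC by 1.65-fold in 6 of 6 libraries (NGFC minus SST log2 -0.73, SE 0.198, adjusted p = 0.00511). PVALB and NGFC were not told apart (adjusted p = 0.851). Without WT cortex replicate 3 the adjusted p against PVALB was 0.0283, and without WT cortex replicate 1, 2 or 3 it was 0.0147, 0.0266 or 0.0211 against NGFC.

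Cacna1i was low in neurogliaform cells and alike in the other 2 classes. The lowest, median and highest library were 0.938, 1.95 and 15.6 CPM in NGFC, 17.0, 19.2 and 29.2 in SST and 13.3, 20.6 and 56.1 in PVALB cells. WT hippocampus replicate 1 is the highest library in all 3 classes, and without it no NGFC library passes 3.28 CPM. NGFC were lower than SST cells by 6.39-fold (log2 -2.68, SE 0.358, adjusted p = 3.32e-06) and lower than PVALB cells by 6.34-fold (log2 -2.66, SE 0.393, adjusted p = 1.40e-05), each in 6 of 6 libraries. NGFC hold 1 to 12 UMIs of it a library, and without WT hippocampus replicate 1 the log2 changes were -3.71 and -3.57, and without replicate 3 -2.16 and -2.07. PVALB and SST cells were not told apart (adjusted p = 0.979). Cacna1h was not tested, with 5.30 ± 2.12 CPM in SST, 3.97 ± 0.938 in PVALB and 1.24 ± 2.60 in NGFC, where 4 of 6 libraries hold no UMI of it.

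Cacna2d1 and Cacna2d2 encode α2δ-1 and α2δ-2, which carry calcium channels to the membrane and bind gabapentin. Cacna2d1 in NGFC had a lowest, median and highest library of 286, 517 and 622 CPM. In PVALB cells these were 1.87, 6.64 and 29.2 (mean 9.79 ± 10.5), and in SST cells 0.189, 2.35 and 4.50 (2.54 ± 1.73). Every NGFC library lies far above every library of the other 2 classes, and replicate 1 of both regions is the lowest among them. The difference was 7.52 on the log2 scale against SST cells (SE 0.327, adjusted p = 9.20e-09) and 6.53 against PVALB cells (SE 0.369, adjusted p = 1.33e-07), in 6 of 6 libraries each. The paper names Cacna2d1 among the genes both neurogliaform clusters share, read from the same cells, so that this is no independent finding. PVALB exceeded SST cells in 5 of 6 libraries and was not called (log2 0.99, SE 0.618, adjusted p = 0.270).

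Cacna2d2 is low in the class where Cacna2d1 is high. Its lowest, median and highest library were 118, 191 and 276 CPM in PVALB cells (mean 185 ± 58.6) and 112, 167 and 206 in SST cells (163 ± 32.4). NGFC had 3.28, 16.2 and 21.6 (15.6 ± 6.55), below every library of both other classes. NGFC were lower by 10.2-fold than SST cells (log2 -3.34, SE 0.166, adjusted p = 9.14e-13) and by 11.6-fold than PVALB cells (log2 -3.53, SE 0.172, adjusted p = 1.30e-12), in 6 of 6 libraries. PVALB and SST cells, neighbors in the order, were not told apart (adjusted p = 0.188).

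Within the classes the genes vary by cluster. The values that follow pool the cells of all WT libraries in a cluster and give 95% exact Poisson intervals, which hold counting error only, so that they are a description with no test. Clusters are named by leading genes: 3 in PVALB (Cartpt and Tac1; Pthlh; Crabp1), 2 in NGFC (Lamp5; Sv2c) and 7 among SST cells (Cbln4; Chrna2; Crh; Chodl; Ighm; Th; and 1 of low depth). Cacna1e reached 201 (185 to 217) CPM in the Chodl cells, which are long-range projecting SST cells, and 66.8 (61.5 to 72.4) in the Cbln4 cells. In the Th cells it was 4.92 (2.87 to 7.88), the lowest of the 7 SST clusters. Cacna1i and Cacna1h were low in the same Chodl cells: Cacna1i had 2.06 (0.757 to 4.49) CPM there and 29.9 (26.4 to 33.7) in the Cbln4 cells, and Cacna1h had no UMI there against 11.0 (7.78 to 15.1) in the Th cells.

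For the Pthlh cells and the Cartpt and Tac1 cells of the PVALB class, values are given for the genes whose intervals do not overlap. The share of all genes with such intervals is not given, so that their number is no result. Cacna2d1 was 29.2 (20.9 to 39.8) CPM in the Pthlh cells and 23.9 (10.3 to 47.1) in the Crabp1 cells, against 0.698 (0.281 to 1.44) in the Cartpt and Tac1 cells, which are the bulk of the class. Cacna2d2 went the other way between the first and the last of these, 72.4 (58.8 to 88.1) against 214 (205 to 224). Cacna1g (43.1 against 12.1 CPM) and Cacna1d (91.4 against 41.1) were higher in the Pthlh cells. WT hippocampus replicate 2 gives 80 of the 224 Pthlh cells and 109 of the 1301 Cartpt and Tac1 cells, and is also the highest PVALB library for both genes (42.9 and 132 CPM); its part in the result was not tested. Cacna1a (135 against 184) and Cacna1c (7.31 against 17.2) were lower there. Among SST clusters Cacna2d2 ran from 93.9 in the Ighm cells to 270.2 in the Crh cells and 331 in the Th cells. Of the 297 Ighm cells, 226 are from WT cortex replicate 1 and 55 from WT hippocampus replicate 1, both of the older chemistry, and the part of this in the low value was not tested. Cacna1a ran from 94.2 to 212 and Cacna1b from 50.4 to 103 over the 12 clusters. Cacna1c ran from 2.99 to 29.9. The Sv2c cluster of NGFC, which holds 516 of the 518 NGFC of WT hippocampus replicate 2, had Cacna1d at 96.1 against 31.8 in the Lamp5 cluster. That library gives 516 of the 614 Sv2c cells and is the highest for Cacna1d in all 3 classes. The pooled values thus do not separate cluster from library, and Cacna1d was not compared between the 2 clusters within single libraries. Cacna2d1 in WT cortex replicates 2 and 3 and hippocampus replicate 3, the WT libraries with at least 10 cells of both clusters, was 348, 311 and 625 CPM in the Sv2c cells, lower than in the Lamp5 cells of the same library in 2 of 3.

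The pattern of each gene over these 12 WT clusters was compared with that of 8643 other genes by Pearson's r of log2(CPM + 1). The clusters share libraries and differ in depth, so that r is a description. The nearest genes were Map1a (r = 0.949) and Slc4a3 (r = 0.935) for Cacna1a and Rpl21 (r = 0.885) and Fam45a (r = 0.882) for Cacna1b. For the L-type genes they were Aff2 (r = 0.970) and Slc7a14 (r = 0.936) for Cacna1c and RP23-459L15.8 (r = 0.952) and mt-Atp8 (r = 0.941) for Cacna1d. Cacna1e was nearest to Oxtr (r = 0.903) and Gap43 (r = 0.897), genes of the oxytocin receptor and of a growth cone protein. Of the T-type genes, Cacna1g was nearest to Exog (r = 0.884) and Mesdc2 (r = 0.880), Cacna1h to 2010012O05Rik (r = 0.933) and Vps9d1 (r = 0.927) and Cacna1i to Tmem44 (r = 0.947) and Mrps10 (r = 0.927). Cacna2d1 was nearest to Rassf3 (r = 0.958) and Tnnt1 (r = 0.951), and Cacna2d2 to Adcy8 (r = 0.951) and Ctsd (r = 0.9497).

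In the glia of the same sort, only 3 pore genes passed the filter on low counts, and the others were not tested. The 3, Cacna1a, Cacna1d and Cacna1e, are higher in precursors than in oligodendrocytes, and Cacna2d1 is higher in oligodendrocytes. In the 6 WT libraries OPC exceeded oligodendrocytes in Cacna1a by 6.76-fold, in Cacna1d by 9.25-fold and in Cacna1e by 13.9-fold, while Cacna2d1 was 4.19-fold higher in oligodendrocytes. The filter left 4 of the 10 genes, and edgeR and DESeq2 called all 4, 3 higher in OPC and 1 lower, where 51.2% of all 9867 genes tested were called. Because the filter keeps a gene that is high in 1 group, the 4 had to be ones with a fair level. The 3 pore genes passed it through the OPC, where they are high. With no filter on low counts more of the 10 were called, as given at the end. Cacna1a had a lowest, median and highest library of 32.1, 42.4 and 71.6 CPM in OPC and 1.98, 3.83 and 12.1 in oligodendrocytes (log2 2.76, SE 0.222, adjusted p = 3.31e-10). For Cacna1d these were 6.87, 23.3 and 47.4 against 0, 1.12 and 3.74 (log2 3.21, SE 0.303, adjusted p = 4.55e-09). Cacna1e had 7.78, 11.3 and 23.4 against 0, 0.539 and 1.30 (log2 3.79, SE 0.420, adjusted p = 5.75e-08). The folds are fitted values. Mean CPM was 23.8 against 1.66 for Cacna1d and 12.8 against 0.629 for Cacna1e, further apart than the fitted folds. Over 17 settings the log2 change of Cacna1e ran from 3.43 to 4.50. The libraries of the 2 classes do not overlap for any of these 3 genes, and OPC are higher in 6 of 6 libraries. Cacna2d1 had 6.87, 14.4 and 24.8 CPM in OPC and 24.5, 45.1 and 65.6 in oligodendrocytes, where the ranges touch and oligodendrocytes are higher in 6 of 6 libraries (log2 -2.07, SE 0.194, adjusted p = 4.06e-09). The other 6 genes had means of 0.661 to 14.3 CPM in OPC and 0.194 to 4.12 in oligodendrocytes and were not tested.

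Among the OPC clusters, Cacna1e was 35.4 (25.9 to 47.2) CPM in the Pdgfra and Cspg4 cells, which are resting precursors, and 0.957 (0.197 to 2.80) in the Bmp4 and Neu4 cells, which are further along the lineage. Glutamatergic neurons, caught in 5 of the WT libraries with at least 10 cells, had Cacna1e at 139 ± 36.0 CPM and Cacna2d1 at 269.9 ± 97.8. Cacna1a there was 113 ± 41.6 and Cacna2d2 18.4 ± 18.5. Astrocytes of 6 libraries had between 0 and 24.0 CPM of the 10 genes in the mean, with an SD over libraries near or above the mean for most.

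WT hippocampus and cortex were compared within each class, 3 libraries against 3. The clearest difference is Cacna2d1 in PVALB cells, where all 3 hippocampal libraries are above the 3 cortical ones by 6.87-fold in the fit, and the next is Cacna1e in SST cells, lower in hippocampus by 2.36-fold. Cacna1b is higher in every hippocampal library than in every cortical one in each of the 3 classes. None of these was called by edgeR, except that Cacna2d1 in PVALB cells was called with replicate number as a block or with no filter on low counts, and no other gene separates the regions except Cacna1i in PVALB cells. In the PVALB and SST sums, neurogliaform and oligodendrocyte markers are higher in every WT hippocampal library than in every cortical one, as given below. Whether transcripts of other cell types in the sums have a part in these differences was not tested.

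In SST cells edgeR called 0 of the 10 genes (1 at an unadjusted p under 0.05, 0 by DESeq2 and 0 with replicate number as a block), where 0.0417% of all 11992 genes tested were called, and 2.86% with the block. The libraries of the 2 regions do not overlap for 2 of the 10, 1 higher and 1 lower in hippocampus, against 12.8% of all genes. In PVALB cells edgeR called 0 of 9 (2 at an unadjusted p under 0.05, 1 by DESeq2), where 0.0459% of all genes were called; with the block 1 was called, where 0.815% of all genes were. There 3 of the 9 do not overlap, all higher in hippocampus, against 9.27% of all genes. Of these, Cacna2d1 passed the filter on low counts only through the hippocampal libraries, where it is high. In NGFC edgeR called 0 of 8 (0 at an unadjusted p under 0.05, 0 by DESeq2 and 0 with the block), where 0% of all genes were called, and 0.217% with the block, and 1 gene does not overlap, against 6.77%. Cacna1h did not pass the filter in PVALB cells, nor did Cacna1h and Cacna1i in NGFC. The medians of the genes tested were -0.11, 0.30 and 0.32 in SST, PVALB and NGFC, against 0.03, 0.02 and 0.02 for all genes.

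Cacna2d1 in PVALB cells was 1.87, 2.66 and 2.56 CPM in the cortical WT libraries, in the order of their replicate numbers, and 11.8, 29.2 and 10.6 in the hippocampal ones. The cortical libraries are close together, and the hippocampal ones are all higher, replicate 2 most of all. Cacna2d1 passed the filter on low counts only through the hippocampal libraries, where it is high. The calls made after that filter thus rest on a gene selected by its high group. The change was 2.78 on the log2 scale (SE 0.532, adjusted p = 0.142), in 3 of 3 hippocampal libraries; with the block it was 2.71 (adjusted p = 0.00658), and by DESeq2 the adjusted p was 0.00384, both called. The composition of the class differs with region: the Pthlh cells are 11.1, 14.7 and 4.97% of PVALB cells in WT cortex and 29.4, 41.9 and 14.7% in WT hippocampus. Within the Pthlh cells Cacna2d1 was 19.6, 11.7 and 14.2 CPM in WT cortex and 33.4, 70.4 and 56.9 in WT hippocampus, and within the Cartpt and Tac1 cells 0, 0.924 and 0.526 and 0, 2.94 and 1.45. So the regions do not overlap within the Pthlh cells either, on 2 to 16 UMIs a library, while in the Cartpt and Tac1 cells the count is 0 to 3 UMIs a library; these clusters were chosen after their values were seen.

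Neurogliaform markers in the PVALB sums also move with region. The 7 neurogliaform markers sum to 244, 187 and 183 CPM in WT cortex (6, 6 and 7 of 7 detected) and 484, 331 and 247 in WT hippocampus (7 of 7), led by Id2 or Hapln1, and the defining marker Lamp5 has 0, 0 and 0.320 against 20.7, 22.3 and 17.7. The 9 markers of the PVALB class itself sum to 4474, 3793 and 3742 CPM in WT cortex (9 of 9 detected, led by Pvalb) and 2648, 2988 and 2599 in WT hippocampus (8 of 9, led by Pvalb or Cox6a2), where Crabp1 is at 0. The 7 oligodendrocyte markers sum to 180, 1084 and 706 CPM in WT cortex and 2010, 3712 and 2683 in WT hippocampus (7 of 7 detected in each library). The part of any of these lists in the result was not tested.

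**Figure D2:**
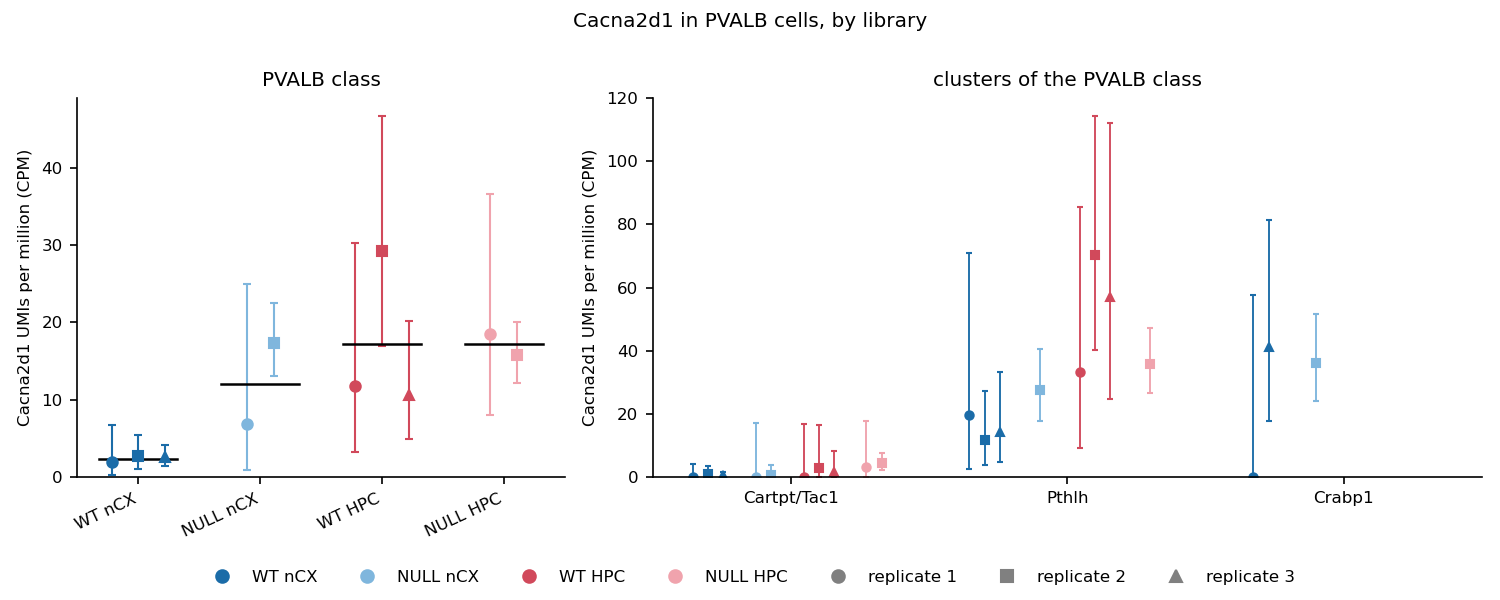
Cacna2d1 (vertical axes, CPM) in PVALB cells of each library, for the whole class by group (left; bar: mean) and within its 3 clusters (right; sums of at least 10 cells); points are libraries, colored by group and shaped by replicate, with 95% exact Poisson intervals. The WT nCX libraries lie between 1.87 and 2.66, below every other library drawn on the left.

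Cacna1e in SST cells was 38.4, 100.1 and 58.1 CPM in WT cortex and 33.3, 37.0 and 16.2 in WT hippocampus. Every cortical library is above every hippocampal one, although cortex replicate 1 and hippocampus replicate 2 are close. The change was -1.24 on the log2 scale (SE 0.423, adjusted p = 0.419 by edgeR), lower in 3 of 3 hippocampal libraries; leaving out WT cortex replicate 2 moved it to -0.84. Chodl cells, where Cacna1e is high, are 5.23, 11.2 and 3.60% of SST cells in WT cortex and 0.338, 2.57 and 0.542% in WT hippocampus. Within the Cbln4 cells, chosen after their values were seen, Cacna1e was 47.5, 112 and 76.6 CPM in WT cortex and 33.2, 33.8 and 15.0 in WT hippocampus. NULL libraries had 60.2 and 86.4 in cortex and 16.8 and 23.6 in hippocampus there, so that the 2 regions do not overlap within these cells in either genotype. In the Chrna2 cells, too, WT cortex (47.6, 57.9 and 54.9) is above the 2 WT hippocampal libraries with at least 10 cells (18.2 and 18.2), and NULL cortex (86.0 and 80.7) above NULL hippocampus (37.2). In the Crh cells, the Th cells and the cells of low depth the WT regions overlap, so that the difference is not found in every cluster. The 7 neurogliaform markers in the SST sums move with region as well: they sum to 54.1, 50.4 and 54.6 CPM in WT cortex (6, 7 and 7 of 7 detected, led by Sema3c or Kit) and 149.5, 165 and 163 in WT hippocampus (7 of 7, led by Id2 or Hapln1). Lamp5 has 0.189, 0.153 and 0.682 against 2.61, 4.50 and 1.89, and only Egfr in cortex replicate 1 is at 0. The 7 OPC markers sum to 3.59, 2.91 and 6.21 CPM in WT cortex (5, 6 and 6 of 7 detected, Top2a at 0, led by Mki67 or Gpr17) and 11.98, 36.5 and 16.5 in WT hippocampus (4, 7 and 5 of 7, Pdgfra at 0 in replicate 3, led by Gpr17). The 5 astrocyte markers sum to 33.5, 18.7 and 16.8 in WT cortex (4, 5 and 5 of 5 detected, Aqp4 at 0 in replicate 1) and 44.3, 51.5 and 62.2 in WT hippocampus (2, 5 and 5 of 5, Aqp4, Gja1 and Gfap at 0 in replicate 1), led by Aldoc. The 7 oligodendrocyte markers sum to 739, 1534 and 581 CPM in WT cortex and 2849, 3491 and 1582 in WT hippocampus (7 of 7 detected in each library). The part of all these lists in the result was not tested.

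**Figure D3:**
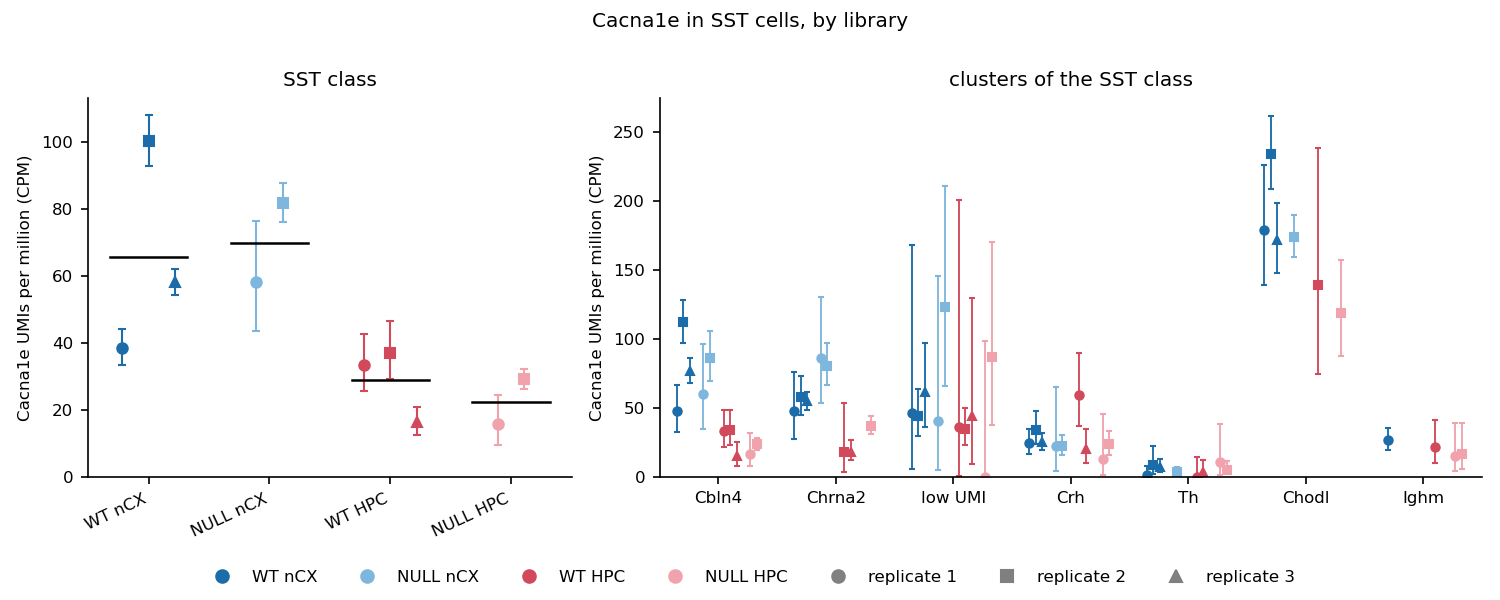
Cacna1e (vertical axes, CPM) in SST cells of each library, for the whole class by group (left; bar: mean) and within its clusters, named by a leading gene (right; sums of at least 10 cells); points are libraries, colored by group and shaped by replicate, with 95% exact Poisson intervals. In the Cbln4 cells the cortical libraries lie at 47.5 or above and the hippocampal ones at 33.8 or below.

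Cacna1b in SST cells was 71.5, 74.5 and 74.0 CPM in WT cortex and 118, 78.5 and 101 in WT hippocampus. The cortical libraries lie within a few CPM of each other and the hippocampal ones spread above them (log2 0.37, SE 0.225, higher in 3 of 3). In PVALB cells it was 53.3, 60.7 and 62.2 and 94.5, 63.5 and 62.6, where only hippocampus replicate 1 stands clear of cortex (log2 0.30, SE 0.267, 3 of 3). In NGFC it was 78.8, 84.8 and 66.2 and 141, 86.3 and 105 (log2 0.57, SE 0.316, 3 of 3), with replicate 1 again the highest. Cacna1i in PVALB cells was 20.6, 13.3 and 14.9 CPM in WT cortex and 56.1, 20.6 and 24.8 in WT hippocampus. The highest cortical library all but touches the lowest hippocampal one, and hippocampus replicate 1 is far above the rest (1.999-fold, SE of log2 0.409, under 0.05 by edgeR before adjustment and not called). The genes that overlap between regions had log2 changes of -0.29 to 0.92 in SST cells (8 genes), -0.61 to 0.61 in PVALB cells (6) and -0.23 to 0.59 in NGFC (7).

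Grin1 tells the genotypes apart in every library. In SST cells it was 37.0 and 28.5 CPM in NULL cortex against 152, 253 and 233 in WT cortex, and 22.8 and 21.6 in NULL hippocampus against 119.8, 175 and 157 in WT hippocampus. In PVALB cells it was 41.4 and 21.4 against 114, 216 and 175 in cortex and 23.2 and 17.4 against 103, 168 and 125 in hippocampus. In NGFC the only NULL cortex library with at least 10 cells had 36.2 against 115, 181 and 169, and NULL hippocampus had 30.03 and 15.5 against 115, 111 and 134. No NULL library reaches a WT library of the same class, and the fall was between 5.62- and 7.04-fold in the 5 comparisons tested. Even so, edgeR's adjusted p for Grin1 ran from 0.0176 (PVALB cortex) through 0.0237 and 0.0274 (SST hippocampus and cortex) and 0.0707 (PVALB hippocampus) to 0.354 (NGFC hippocampus), above 0.01 each time, while DESeq2 called it in all 5. With 2 NULL libraries of unequal size in each region, a count of 0 called genes by edgeR thus says little about the members.

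Across genotypes no calcium channel gene was called in any class and region, by edgeR or by DESeq2, except that with no filter on low counts edgeR called Cacna2d1 in cortical PVALB cells (log2 2.51, adjusted p = 0.00217). The largest difference is Cacna2d1 in cortical PVALB cells, higher in both NULL libraries than in all 3 WT libraries by 5.78-fold in the fit, and in the same cells Cacna1e is lower by 2.33-fold. Cacna1i and Cacna1d have lower estimates in NGFC of hippocampus (log2 -1.51, SE 1.30, and -1.41, SE 0.848), but their NULL and WT libraries overlap. The Sv2c cluster is 3.43, 99.6 and 10.7% of NGFC in WT hippocampus and 1.59 and 5.48% in NULL hippocampus, and Cacna1d was 10.4, 113 and 31.7 CPM in WT and 11.4 and 25.3 in NULL; the part of the shares was not tested. Cacna1i was 15.6, 0.938 and 1.29 CPM in WT and 1.43 and 1.81 in NULL, so that only WT replicate 1 is high. Cacna2d1 in neurogliaform cells, where it is abundant, was close between genotypes: 326 and 594 CPM in NULL against 286, 622 and 562 in WT hippocampus, with ranges that overlap (log2 -0.10, SE 0.400). The study lists Cacna2d1 and Cacna2d2 among its genes that differ by genotype, from a test over single cells of these same libraries, so that this is no independent evidence of a direction.

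In SST cells of cortex 0 of 10 were called by edgeR (0 at an unadjusted p under 0.05, 0 by DESeq2), with 0% of all 12952 genes, and 2 do not overlap, both lower in NULL, against 16.1% of all genes. In SST cells of hippocampus 0 of 10 were called by edgeR (0 and 0), with 0% of all genes, and 2 do not overlap, 1 higher and 1 lower, against 17.7%. The difference of the genotype effect between the regions of SST cells was called by edgeR for 0 of 10 (0 at an unadjusted p under 0.05, 0 by DESeq2; 0% of all genes). PVALB cells of cortex had 0 of 9 called by edgeR (2 at an unadjusted p under 0.05, 0 by DESeq2), with 0.0104% of all genes, and 2 that do not overlap, 1 higher and 1 lower, against 20.3%. PVALB cells of hippocampus had 0 of 9 called by edgeR (0 and 0), with 0% of all genes, and 0 that do not overlap, against 14.1%. Their difference between regions was called by edgeR for 0 of 9 (2 at an unadjusted p under 0.05, 0 by DESeq2; 0% of all genes). NGFC of hippocampus had 0 of 9 called by edgeR (0 and 0), with 0% of all genes, and 3 that do not overlap, all lower in NULL, against 19.2%. In NGFC of cortex 1 NULL library was left, so that there is no test.

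Cacna2d1 in PVALB cells was 6.90 and 17.3 CPM in NULL cortex against 1.87, 2.66 and 2.56 in WT cortex. Both NULL libraries are above the WT range, replicate 1 on 2 UMIs in 31 cells and replicate 2 on 55 UMIs in 240 cells, against 2, 7 and 16 UMIs in the WT libraries. The change was 2.53 (SE 0.525, adjusted p = 0.108 by edgeR and 0.124 by DESeq2), in 2 of 2 NULL libraries, and without NULL cortex replicate 2 it was 1.49. In hippocampus the values were 18.6 and 15.7 against 11.8, 29.2 and 10.6, which overlap (log2 -0.08, SE 0.513). The test of the difference between regions gave -2.61 (SE 0.743), which is not called by edgeR after adjustment over all genes. The clusters differ in share here as well: the Pthlh cells are 6.45 and 31.2% of PVALB cells in the NULL cortex libraries and the Crabp1 cells 22.6 and 23.3%, against 11.1, 14.7 and 4.97% and 7.41, 1.84 and 2.88% in WT cortex. Within clusters, Cacna2d1 was 0 and 0.681 CPM in the Cartpt and Tac1 cells of NULL cortex, within the range of 0, 0.924 and 0.526 in WT cortex. In NULL cortex replicate 2 it was 27.5 in the Pthlh cells and 36.0 in the Crabp1 cells, where WT cortex libraries with at least 10 cells had 19.6, 11.7 and 14.2 in the Pthlh cells and 0 and 41.2 in the Crabp1 cells. The 7 neurogliaform markers, of which Hapln1, Kit and Egfr are also found in Crabp1 cells, sum to 628 and 907 CPM in the PVALB sums of NULL cortex (6 and 7 of 7 detected, led by Hapln1) against 244, 187 and 183 in WT cortex, and Lamp5 is at 0 and 0.314. The 10 SST markers sum to 1163 and 1368 CPM in NULL cortex (8 and 9 of 10 detected, Chodl at 0, led by Sst) against 548, 1036 and 703 in WT cortex (9, 10 and 10 of 10, led by Satb1 or Sst). The part of the shares and of these markers in the result was not tested.

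Cacna1e in PVALB cells was 3.45 and 9.42 CPM in NULL cortex and 15.0, 26.9 and 15.8 in WT cortex. Both NULL libraries are below the WT range, on 1 and 30 UMIs (log2 -1.22, SE 0.495, not called by edgeR), and without NULL cortex replicate 2 the change was -2.43. Within the Cartpt and Tac1 cells it was 4.67 and 17.0 CPM in NULL cortex, the first on 1 UMI, and 16.6, 29.1 and 16.5 in WT cortex, which overlap. In the Pthlh cells NULL cortex replicate 2 had 3.30 on 3 UMIs, against 9.82, 18.8 and 14.2 in WT cortex, and the part of the cluster shares was not tested. In PVALB cells of hippocampus the change was 0.37 (SE 0.517), and the difference between regions 1.59 (SE 0.711, not called by edgeR).

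**Figure D4:**
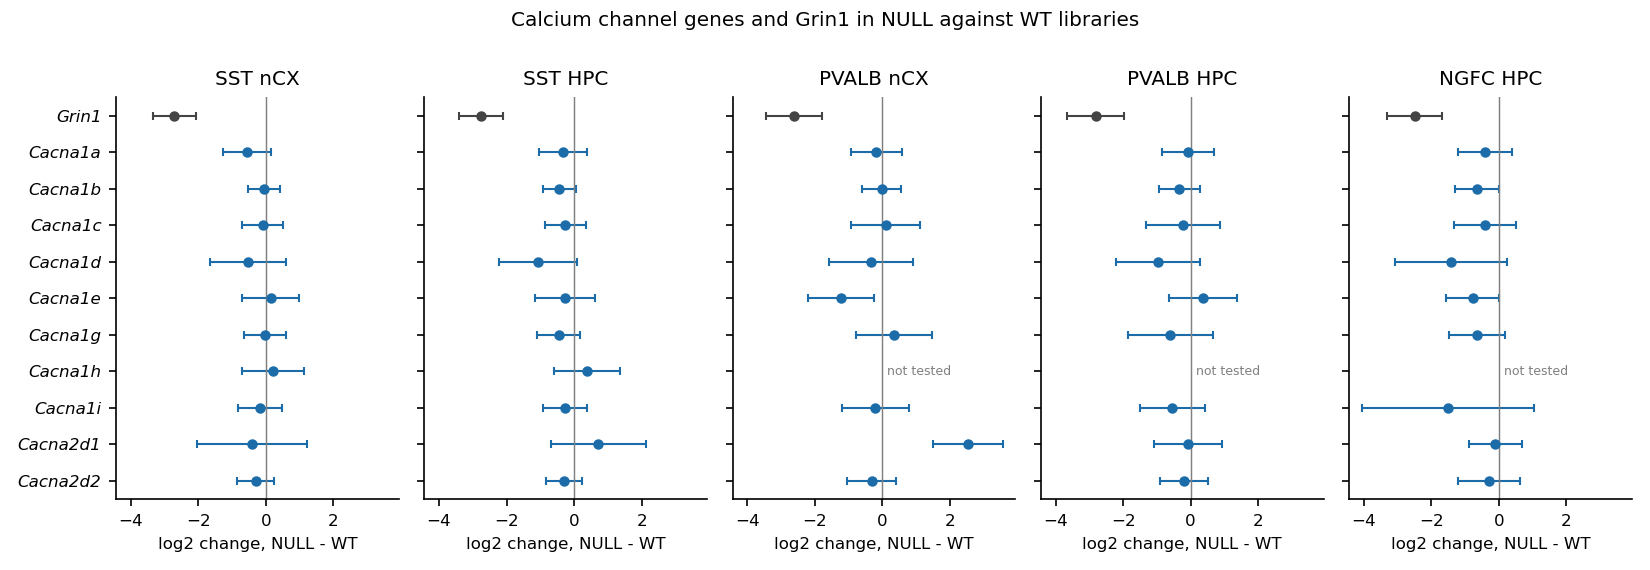
Log2 change of Grin1 and the calcium channel genes in NULL against WT libraries (horizontal axis), for 5 classes and regions with a test. Points are edgeR estimates from 2 NULL and 3 WT libraries. Bars are approximate 95% intervals that treat the change as normal with its SE, and are narrower than the test itself would give. Grin1 lies between -2.82 and -2.49, and Cacna2d1 in PVALB cells of nCX at 2.53.

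The other genes whose NULL and WT libraries do not overlap differ by less. In SST cells of cortex Cacna1a was 85.1 and 109 CPM in NULL and 114, 156 and 171 in WT (log2 -0.57, SE 0.365), and Cacna2d2 was 118 and 155 and 162, 171 and 181 (-0.31, SE 0.274). Both are lower in 2 of 2 NULL libraries, and the gap between the groups is smaller than the spread within one of them. In SST cells of hippocampus Cacna1b was 70.0 and 74.2 in NULL and 118, 78.5 and 101 in WT (-0.44, SE 0.245), and Cacna2d1 5.51 and 6.03 and 1.56, 4.50 and 4.33 (0.72, SE 0.723). In NGFC of hippocampus Cacna1b was 62.9 and 76.8 in NULL and 141, 86.3 and 105 in WT (-0.65, SE 0.332). Cacna1e there was 14.3 and 26.0 and 41.5, 40.3 and 28.1 (-0.77, SE 0.398), and Cacna2d2 12.9 and 14.9 and 20.7, 15.9 and 15.9 (-0.29, SE 0.475). For all 3 both NULL libraries are lower than the lowest WT library, though for Cacna1e and Cacna2d2 by little. Some markers of other cell types in these sums move with genotype. In SST cells of cortex the astrocyte markers sum to 59.4 and 72.2 CPM in NULL and 33.5, 18.7 and 16.8 in WT. Most of each sum is 1 gene, Aldoc, at 57.1 and 70.6 in NULL and 31.96, 14.7 and 15.3 in WT. The list thus says little about astrocyte transcripts other than Aldoc. In SST cells of hippocampus the OPC markers sum to 3.15 and 3.65 against 11.98, 36.5 and 16.5. The astrocyte markers go the other way there, 121 and 93.3 against 44.3, 51.5 and 62.2, again led by Aldoc. In NGFC of hippocampus the OPC markers sum to 1.43 and 6.78 against 19.4, 58.2 and 31.1. The part of these markers was not tested. The medians of the genes tested were -0.13 and -0.29 in SST cells of cortex and hippocampus, -0.18 and -0.23 in PVALB cells and -0.64 in NGFC of hippocampus, against -0.01, -0.04, -0.01, -0.01 and -0.06 for all genes. Cacna1c, Cacna1d, Cacna1g, Cacna1h and Cacna1i overlap between genotypes in each of the 5 comparisons, where tested, with log2 changes of -1.51 to 0.38. The other values of Cacna1a, Cacna1b, Cacna1e, Cacna2d1 and Cacna2d2, where the groups overlap, run from -0.42 to 0.37.

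In NGFC of cortex the single NULL library had Cacna2d1 at 463 CPM against 292, 532 and 502 in WT, and Cacna1a at 115 against 102, 188 and 163. It lies within the WT range for both genes, as it does for Cacna1c, Cacna1d and Cacna1e. For Cacna1b (65.1 against 66.2 to 84.8) and Cacna1g (8.14 against 9.85 to 16.5) it lies below the WT range.

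Genes that work with these channels were described beside them, 54 genes in 8 lists, and edgeR without a block called none of them between regions or genotypes, where at most 0.0459% of all genes were called, so that the 0 says little; the other fits were not read for them. Of the β subunits, which bind the pore inside the cell, 4 were tested, and in neurogliaform cells 2 were higher and 0 lower than in SST and than in PVALB cells (where 24.6% and 24.4% of all genes were called), Cacnb3 (log2 0.74, SE 0.106; log2 1.01, SE 0.123) and Cacnb2 (log2 0.62, SE 0.162; log2 0.68, SE 0.189). Their median was 0.29 and 0.49, and -0.17 between PVALB and SST cells, where Cacnb1 was lower in PVALB (log2 -0.80, SE 0.158). Between PVALB and SST cells 23.0% of all genes were called. Cacna2d3, the α2δ-3 gene and the only tested one of its list of 2, was lower in PVALB than in SST cells (log2 -2.58, SE 0.277) and lower in NGFC than in SST cells (log2 -3.98, SE 0.367), and was not called between NGFC and PVALB cells. Of the γ subunits and their relatives that escort AMPA receptors, 5 of 8 were tested, with 1 higher and 1 lower in PVALB than in SST cells (Cacng2, log2 0.59, SE 0.109; Cacng4, log2 -1.09, SE 0.176). In NGFC 1 of the 5, Cacng3, was lower than in SST cells (log2 -3.01, SE 0.539), and against PVALB cells Cacng4 was higher (log2 1.43, SE 0.210) and Cacng2 lower (log2 -0.87, SE 0.124). The list medians were -0.85, -0.05 and -0.13. Of 3 other pore genes only Nalcn, a leak channel, was tested, and it was higher in NGFC than in SST cells (log2 0.35, SE 0.101).

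The counts that follow stand beside shares of all genes called of 23.0% (PVALB and SST), 24.6% (NGFC and SST) and 24.4% (NGFC and PVALB). Channel regulators had 7 of 10 genes tested. Stac2, an adaptor of L-type channels, and Cabp1, a calmodulin relative, were higher in PVALB than in SST cells (log2 0.56, SE 0.151; log2 0.39, SE 0.102), 2 higher and 0 lower. In NGFC 3 were lower than in SST cells, Stac2 (log2 -3.43, SE 0.339), Rem2 (log2 -2.57, SE 0.556) and Ncs1 (log2 -0.49, SE 0.104), and 2 lower than in PVALB cells, Stac2 (log2 -3.99, SE 0.340) and Ncs1 (log2 -0.68, SE 0.112), with 0 higher in either. Genes of calcium release and clearance had 10 of 14 tested, with 3 higher and 4 lower in PVALB than in SST cells. Itpr1, the main IP3 receptor of neurons, rose most (log2 1.58, SE 0.187), then Atp2b1 (log2 0.37, SE 0.0772), and Atp2b4, a plasma membrane calcium pump, fell most (log2 -2.63, SE 0.272), then Slc8a2 (log2 -1.502, SE 0.210). Against SST cells NGFC had 1 higher, Atp2a2 (log2 0.24, SE 0.0667), and 5 lower, led by Atp2b4 (log2 -3.53, SE 0.382) and Slc8a3 (log2 -1.63, SE 0.296). Against PVALB cells they had 1 higher, Slc8a2 (log2 1.65, SE 0.273), and 3 lower, led by Ryr2 (log2 -0.70, SE 0.189) and Atp2b2 (log2 -0.50, SE 0.0847). The medians of the regulators were -0.09, -0.06 and -0.26 in the 3 comparisons, and those of release and clearance -0.35, -0.23 and -0.45.

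Calcium-activated potassium channels had 4 of 6 genes tested. Here, too, 23.0% (PVALB and SST), 24.6% (NGFC and SST) and 24.4% (NGFC and PVALB) of all genes were called. Kcnn2, an SK channel, was higher in PVALB than in SST cells (log2 1.86, SE 0.213) and higher again in NGFC (log2 3.85, SE 0.192 against SST, log2 1.99, SE 0.195 against PVALB). Kcnmb4, a β subunit of BK channels, had the opposite order (log2 -2.71, SE 0.187; log2 -4.09, SE 0.263; log2 -1.38, SE 0.363). Kcnma1, the BK pore, was highest in PVALB cells (log2 0.43, SE 0.0823 against SST) and lowest in NGFC (log2 -0.46, SE 0.0939; log2 -0.90, SE 0.0989), so that 2 were higher and 1 lower in PVALB than in SST cells, and 1 higher and 2 lower in NGFC than in either. Release-site partners had 7 of 7 tested. Rimbp2, which ties calcium channels to the release machinery, was higher in NGFC than in SST (log2 3.02, SE 0.197) and in PVALB cells (log2 2.16, SE 0.217), as was Rims1 (log2 0.91, SE 0.0795; log2 0.81, SE 0.0866), and Pclo was lower (log2 -0.60, SE 0.0704; log2 -0.29, SE 0.0739). Against PVALB cells Erc2 (log2 0.65, SE 0.103) and Rims2 (log2 0.69, SE 0.154) were higher too, for 4 higher and 1 lower, against 2 higher and 1 lower than in SST cells. Between PVALB and SST cells 1 was higher, Rimbp2 (log2 0.86, SE 0.219), and 2 lower, Erc2 (log2 -0.48, SE 0.0868) and Pclo (log2 -0.30, SE 0.0679). The medians of the potassium channels were 0.25, -0.30 and -0.55, and of the release-site genes -0.06, 0.21 and 0.65, beside all-gene medians of 0.00, 0.01 and 0.01. Pclo has a second gene model of the same symbol, and the one with more UMIs was used.

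Between OPC and oligodendrocytes 18 of the 54 partner genes were tested and 12 were called, where 51.2% of all genes tested were. Cacng4 was higher in OPC (log2 6.22, SE 0.652), as were Rims1 (log2 2.41, SE 0.297), Itpr2 (log2 2.36, SE 0.255) and Kcnmb4 (log2 2.03, SE 0.220). Cacnb4, the β4 gene, was higher in oligodendrocytes (OPC minus oligodendrocytes log2 -2.73, SE 0.181), as was the sodium-calcium exchanger Slc8a3 (log2 -2.32, SE 0.304). By list, 1 of 1 other pore genes was higher, 2 of 2 β subunits lower, 1 of 2 γ relatives higher, 1 of 3 regulators lower, 2 of 5 release and clearance genes higher and 2 lower, 2 of 2 potassium channels higher and 1 of 3 release-site genes higher. Atp2b1, 1 of the lower release and clearance genes, has a mean CPM that is no lower in OPC (148 against 143).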

How the data were processed

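The deposited values are UMI counts, which the authors made with Cell Ranger (2.1.1 by the methods, 3.0.2 by the file headers) on mm10, after adding 4 kb to the end of each gene. Each of 4 matrices pools the libraries of a region and genotype, and libraries were told apart by barcode suffix, matched to replicates by cell number. A cell was kept if it had 200 to 6000 genes and a mitochondrial share below 30%, 26201 of 26987. Seurat 5.3.0 (R 4.3.3) integrated the matrices over 25 dimensions of 2000 variable features, none of them among the 64 members and listed genes, and found 35 clusters at resolution 1.0. A cluster was named when at least 3 markers of a class reached 20 CPM; 4 clusters stayed unnamed, 3 of low depth and 1 with too few markers.

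UMIs were summed per library and class over at least 10 cells and tested by edgeR 4.0.16 (quasi-likelihood test after TMM scaling and filterByExpr; p adjusted over all genes by Benjamini-Hochberg), with DESeq2 1.42.0 beside it. Class comparisons use the 6 WT libraries as a block, region 3 against 3 WT libraries, and genotype 1 model per class with 4 groups. Changes of WT replicates of the same number are related between regions (r of 0.261 to 0.789), so that region was also tested with replicate as a block. Intervals of pooled UMIs are exact Poisson intervals. Genes named are the members, the 2 like genes of each and, in lists, called genes, the largest changes first. Members and lists were chosen with earlier results of these data known. The code was tested on simulated data. Cells that Scrublet (scanpy 1.11.5, rate 0.06) marked as doublets were kept in the sums and left out in an alternative. Python 3.11.15, numpy 2.4.6, scipy 1.17.1, pandas 2.3.3 and matplotlib 3.10.9 were used. Alternatives were other thresholds, scalings, filters, clusterings and each library left out. The level of oligodendrocyte markers in the interneuron sums is not reported here.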

Additional observations from a re-analysis of the deposited data

Results flagged for a closer look

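In each class of the WT libraries the lowest or highest of 6 values of a gene was marked when it stood apart by Dixon's ratio (gap over range), which chance alone gives in about 1 of 20 groups; 11 of 50 groups have such a value. In WT hippocampus replicate 1, Cacna1b in PVALB cells is 94.5 CPM (others 53.3 to 63.5), Cacna1h in NGFC 6.48 CPM (others 0 to 0.971), and Cacna1i 29.2 CPM (others 17.0 to 19.5) in SST cells, 56.1 CPM (others 13.3 to 24.8) in PVALB cells and 15.6 CPM (others 0.938 to 3.28) in NGFC. In WT hippocampus replicate 2, Cacna1d in PVALB cells is 132 CPM (others 21.5 to 59.9) and Cacna2d1 in PVALB cells 29.2 CPM (others 1.87 to 11.8). In WT cortex replicate 1, Cacna1c in OPC is 0 CPM (others 12.01 to 17.9) and Cacna2d2 in NGFC 3.28 CPM (others 15.9 to 21.6). In WT cortex replicate 3, Cacna1a in oligodendrocytes is 12.1 CPM (others 1.98 to 4.55) and Cacna1g in oligodendrocytes 0.934 CPM (others 0 to 0.268).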

How the results depend on the processing

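Of the values for single genes, 605 were the same, 4 stronger and 23 weaker, and of the counts of called genes 283 were the same and 12 moved; none reversed. A region or genotype result that was not called and stays so counts as the same, which is no sign that its size is stable. Among called results, Cacna1c and Cacna1g between NGFC and SST cells each lost the call in 5 of 17 alternatives. Without the library block, the genes called fell to 1 between PVALB and SST cells, 3 between NGFC and SST cells and 3 between NGFC and PVALB cells. With each library left out, the counts were 2 to 5 between PVALB and SST cells (2 without WT cortex replicate 2), 3 to 6 between NGFC and SST cells (3 without WT cortex replicate 1, 3 without replicate 2 and 3 without replicate 3), 5 to 5 between NGFC and PVALB cells, 4 to 6 between OPC and oligodendrocytes, and 0 to 0 in every region and genotype comparison. With no filter on low counts, 7 were called between OPC and oligodendrocytes, 1 between regions in PVALB cells and 1 between genotypes in cortical PVALB cells, Cacna2d1 in both of the last. The share of all genes called is not given for these settings. A fall or rise in the counts thus says little about these genes alone. The cause was not tested.

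With the replicate block, Cacna2d1 was called between regions in PVALB cells (log2 2.71), 1 gene against 0, as by DESeq2 (1 gene); the block changed no other call. That test could not be fitted, since the gene fell under the filter, without each WT cortex replicate, at resolution 0.6 and with no integration, and over the 14 settings with a value the change ran from 2.11 to 3.12. In cortical PVALB cells of the 2 genotypes it ran from 1.49 to 2.75. When a NULL library is left out, the remaining one is assumed to vary as the other groups do. Libraries pool animals, replicate 1 differs in chemistry, and the genotypes have 2 NULL libraries a region, so that moderate changes may be missed.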
